A study of Homo sapiens with 6 samples.

Results

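MHC class I antigen presentation was followed here through 9 genes: the heavy chains HLA-B, HLA-C, HLA-E and HLA-F, the light chain B2M, the peptide transporter subunits TAP1 and TAP2, the loading factor TAPBP (tapasin) and the transactivator NLRC5. They were taken by name out of 58219 genes counted, with earlier results of these data known. All 9 were among the 14239 genes with enough reads to be tested. RNA came from SNU-387, an established cell line from a pleomorphic hepatocellular carcinoma of the liver. The shYES1 group (n = 3) stably carried a short hairpin RNA against YES1, a SRC-family tyrosine kinase, and the shNT group (n = 3) stably carried a hairpin without a target. Both groups were stable lines of the same cells, and no other treatment, time or agent is labelled. The labels do not say how many hairpins or clones stand behind a group, so a difference due to YES1 and one due to a particular hairpin or line cannot be told apart. Nothing in the labels says that the 3 samples of each group were separate cultures, so p-values measure only how these samples spread, and part of that spread may be technical.

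A class I molecule is a heavy chain paired with B2M and holding a short peptide, displayed at the cell surface for CD8+ T cells and natural killer cells. Peptides are made by the proteasome in the cytosol, pumped into the endoplasmic reticulum by the TAP1-TAP2 transporter, trimmed there, and loaded with the help of tapasin and general folding chaperones. NLRC5 gathers with the RFX and NF-Y factors on the promoters of heavy chains, B2M, TAP1 and the immunoproteasome genes, and interferon signalling adds to their transcription, in part through IRF1. Tumour cells, those of liver cancer included, often carry less of this machinery than normal tissue.

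The 9 genes did not move together. TAP1 and TAP2, the transporter, rose in shYES1 cells by 1.28-fold and 1.55-fold, while the abundant structural genes HLA-B, HLA-C and B2M fell slightly and were 1.12-fold, 1.14-fold and 1.13-fold lower. TAPBP was 1.06-fold lower, HLA-E 1.05-fold higher and NLRC5 1.09-fold higher, and HLA-F was not called. Thus 4 of the 9 genes were called higher, 4 lower and 1 neither (edgeR quasi-likelihood test, Benjamini-Hochberg adjusted p under 0.05 over all genes tested). Of all 14239 genes tested, 65.3% were called, 32.5% higher and 32.8% lower, so a call by itself sets a gene apart from few others here. The groups did not overlap for 8 of the 9 genes, against 67.9% of all genes tested. The median log2 fold change (shYES1 over shNT, here and below) was 0.04 over the 9 genes and -0.0047 over all genes tested. In these bulk samples, fewer cells expressing a gene and less RNA per cell cannot be told apart.

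YES1 itself was lower in every shYES1 library, at 42.9, 43.3 and 46.0 CPM, against 178, 181 and 180 CPM in shNT libraries (4.06-fold lower). CPM divide the reads of a gene by its library's size after TMM scaling, which sets the bulk of genes level between libraries. Each library held 11290889 to 18944148 gene reads in shYES1 and 12825919 to 16388822 in shNT. Of the 6 hepatocyte markers, HNF4A and TTR had 0 reads in all 6 libraries and ALB and APOA1 at most 1 read in any. SERPINA1 was expressed, at 16.9 ± 1.17 CPM in shYES1 and 19.1 ± 1.34 CPM in shNT (called lower). TF was low, at 3.41 ± 0.237 CPM in shYES1 and 2.46 ± 0.305 CPM in shNT (called higher). The epithelial keratins KRT8 and KRT18 and the mesenchymal genes FN1 and CDH2 were expressed. The summed level of 8 leukocyte and antigen-presenting cell markers was 37.7 to 40.5 CPM in shYES1 and 43.2 to 46.8 CPM in shNT, nearly all of it CD14, and the T cell gene CD3E was at 0 in all 6. Epithelial markers (4 genes) summed to 1068 to 1089 CPM in shYES1 and 763 to 772 CPM in shNT, and mesenchymal markers (4 genes) to 16595 to 16766 CPM in shYES1 and 25598 to 28237 CPM in shNT. The epithelial sum was nearly all KRT8 and KRT18, with EPCAM and CDH1 close to 0, and the mesenchymal sum was nearly all FN1, while CDH2 was called higher in shYES1. Their part in the class I values was not tested.

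Promoter sequences are shown for the 3 abundant genes that fell and for the transporter pair that rose, since these genes share regulators. Each is the RefSeq window on GRCh38.p14 from 250 bases before to 50 bases after the start of the gene, written 5′ to 3′ on the strand of the gene. Such windows matched 7 of the 9 genes. TAP1 had 2 windows, and only the first listed was used. Capitals mark matches, on either strand, to 5 short patterns: the κB-type GGGNNTTNCC, the interferon-response type GAAANNGAAA, TGACG, the core of a cAMP-response element, the box CCAAT bound by NF-Y, and the GAS-type TTCNNNGAA. HLA-B is at chr6:31357130-31357429 (minus strand), HLA-C at chr6:31272043-31272342 (minus), B2M at chr15:44711267-44711566 (plus), TAP1 at chr6:32853655-32853954 (minus) and TAP2 at chr6:32838690-32838989 (minus).

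HLA-B: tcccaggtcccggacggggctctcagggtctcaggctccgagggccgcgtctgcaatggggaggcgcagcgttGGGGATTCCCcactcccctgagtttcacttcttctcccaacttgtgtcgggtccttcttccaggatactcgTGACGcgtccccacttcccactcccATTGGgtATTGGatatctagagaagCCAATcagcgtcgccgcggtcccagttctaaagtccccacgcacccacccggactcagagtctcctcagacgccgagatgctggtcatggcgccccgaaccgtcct
HLA-C: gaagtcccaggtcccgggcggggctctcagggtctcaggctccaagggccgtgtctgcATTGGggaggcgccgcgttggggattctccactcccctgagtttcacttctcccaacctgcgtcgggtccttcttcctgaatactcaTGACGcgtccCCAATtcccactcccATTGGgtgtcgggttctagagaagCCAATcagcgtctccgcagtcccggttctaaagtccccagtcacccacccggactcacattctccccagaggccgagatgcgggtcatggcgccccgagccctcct
B2M: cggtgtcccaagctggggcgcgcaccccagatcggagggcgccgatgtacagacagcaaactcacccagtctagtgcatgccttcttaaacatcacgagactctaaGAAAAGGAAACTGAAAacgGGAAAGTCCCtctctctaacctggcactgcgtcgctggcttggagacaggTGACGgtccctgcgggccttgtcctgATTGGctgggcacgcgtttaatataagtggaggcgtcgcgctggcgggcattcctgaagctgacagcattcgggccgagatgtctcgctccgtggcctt
TAP1: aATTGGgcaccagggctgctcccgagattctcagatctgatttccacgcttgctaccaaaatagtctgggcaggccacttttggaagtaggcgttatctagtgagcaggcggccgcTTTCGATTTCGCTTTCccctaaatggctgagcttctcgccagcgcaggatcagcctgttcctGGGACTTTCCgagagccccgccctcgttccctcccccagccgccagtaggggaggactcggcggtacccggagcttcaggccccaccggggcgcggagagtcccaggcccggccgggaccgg
TAP2: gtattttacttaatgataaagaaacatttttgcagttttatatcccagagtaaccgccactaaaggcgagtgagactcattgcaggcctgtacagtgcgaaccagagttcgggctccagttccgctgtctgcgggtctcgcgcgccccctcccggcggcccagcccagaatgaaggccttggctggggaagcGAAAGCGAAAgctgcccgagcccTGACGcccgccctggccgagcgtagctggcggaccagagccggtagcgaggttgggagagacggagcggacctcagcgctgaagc

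The HLA-B and HLA-C windows both carry TGACG once, with CCAAT matches between it and the start of the gene; HLA-B has 3 CCAAT matches in all and HLA-C has 4. HLA-B has a κB-type match, GGGGATTCCC, at position -177 from its start, and HLA-C has none; κB-type matches occur in 5.68% of 35116 RefSeq promoter windows. B2M has a κB-type match at -125 next to 2 overlapping interferon-response matches, and 1 match each to TGACG and CCAAT. TAP1 has 2 overlapping interferon-response matches and a κB-type match at -72. The TAP2 window has 1 interferon-response match, GAAAGCGAAA, and 1 TGACG. Of the remaining windows, TAPBP has 1 κB-type and 2 overlapping interferon-response matches, and HLA-F 1 interferon-response and 2 CCAAT matches. Interferon-response matches occur in 3.57% of the 35116 windows, TGACG in 24.6%, CCAAT in 34.6% and the GAS-type pattern, found in none of the 7 windows, in 7.66%. Among the genes with an interferon-response match, TAP1 and TAP2 rose, B2M and TAPBP fell and HLA-F was not called. A link between these matches and the changes was not tested. The patterns are exact, so the HLA-B and HLA-C windows may still hold an interferon-response element that differs from the pattern used. TAP1 and the immunoproteasome gene PSMB9 are read in opposite directions, from starts 488 bases apart if the start of the TAP1 window shown is used.

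The heavy chains HLA-B and HLA-C are the polymorphic molecules that show peptides to CD8+ T cells. HLA-B (identifier ENSG00000234745.10 in the files, GENCODE 29 span chr6:31269491-31357188) had 1288, 1324 and 1326 CPM in shYES1 libraries 1 to 3, against 1436, 1481 and 1489 CPM in shNT libraries 1 to 3. Its log2 fold change was -0.16 (SE 0.024 by edgeR, adjusted p = 6.69e-08). HLA-C (chr6:31268749-31272130) had 806, 832 and 814 CPM in shYES1, against 907, 939 and 948 CPM in shNT, a log2 fold change of -0.19 (SE 0.024 by edgeR, adjusted p = 3.09e-09). For both genes the shYES1 libraries were all below the shNT libraries. Counts of these genes are uncertain as levels, since reads that fit several class I genes equally well, or that come from an allele far from the reference, can go uncounted. The annotated exons of HLA-B and HLA-C share 35 bases on the same strand.

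B2M, the invariant light chain without which heavy chains do not reach the surface in stable form, fell by about as much. B2M (ENSG00000166710.17, chr15:44711487-44718877) had 2265, 2292 and 2303 CPM in shYES1 libraries, against 2516, 2553 and 2670 CPM in shNT libraries, with no overlap. Its log2 fold change was -0.17 (SE 0.024 by edgeR, adjusted p = 1.58e-08). It lies outside the MHC on chromosome 15 and shares no exonic base with another annotated gene. The changes of HLA-B, HLA-C and B2M were smaller than those of most genes in this comparison: 29.1%, 33.5% and 31.2% of all genes tested had a smaller absolute log2 fold change, and the median absolute change was 0.30, or 1.23-fold. Tested against a change of 1.2-fold (edgeR glmTreat), none of the 3 was called, and only TAP1 and TAP2 were among the 9, against 36.4% of all genes tested.

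HLA-E and HLA-F are the less polymorphic heavy chains. HLA-E, which shows leader peptides of other class I chains to the NKG2A receptor of natural killer cells, is at chr6:30489467-30494205. HLA-E had 394, 403 and 396 CPM in shYES1 libraries, against 363, 386 and 384 CPM in shNT libraries. The groups did not overlap, but the log2 fold change was only 0.07 (SE 0.026 by edgeR, adjusted p = 0.0143), it was no longer called without shYES1 library 2 (adjusted p = 0.0603) or without shNT library 1 (log2 fold change 0.04, adjusted p = 0.145), and it turned to -0.02 under a scaling described below. HLA-F, a chain that can bind natural killer cell receptors without peptide, is at chr6:29722775-29738528. HLA-F had 39.3, 42.2 and 39.5 CPM in shYES1 libraries, against 38.7, 38.6 and 39.7 CPM in shNT libraries, and the groups overlapped. Its log2 fold change was 0.04 with a 95% interval of -0.06 to 0.14 (edgeR adjusted p = 0.501), and its direction also turned under that scaling. HLA-F exons share 1236 bases with genes on the opposite strand, whose stranded reads were counted apart.

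The transporter subunits stood out from the rest. TAP1 and TAP2 are subunits that join to carry cytosolic peptides into the endoplasmic reticulum, and neither works without its partner. TAP1 (ENSG00000168394.10, chr6:32845209-32853978) had 118, 126 and 123 CPM in shYES1 libraries, against 93.0, 94.7 and 98.5 CPM in shNT libraries. Its log2 fold change was 0.36 (SE 0.035, 95% interval 0.28 to 0.43, adjusted p by edgeR = 2.33e-12). TAP2 (ENSG00000204267.13, chr6:32821833-32838780) had 57.9, 51.9 and 53.4 CPM in shYES1 libraries, against 35.2, 34.3 and 35.9 CPM in shNT libraries. Its log2 fold change was 0.63 (SE 0.051, 95% interval 0.53 to 0.74, adjusted p by edgeR = 3.52e-15). Every shYES1 library was above every shNT library for both subunits, and both stayed called higher under all 16 alternative settings, between 0.27 and 0.45 for TAP1 and between 0.54 and 0.73 for TAP2. Of all genes tested, 56.7% had a smaller absolute change than TAP1 and 79.1% a smaller one than TAP2. TAP2 shares 2064 of its 6390 exonic bases with AL669918.1 on the same strand. Reads that fit both genes would be counted for neither, so the TAP2 count may rest on only part of its exons. AL669918.1 had 0 reads in all 6 libraries, which for the same reason does not show that it is silent.

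TAPBP, which tethers empty heavy chains to the transporter and edits their peptides, did not follow TAP1 and TAP2. TAPBP (chr6:33299694-33314387) had 819, 800 and 816 CPM in shYES1 libraries, against 869, 854 and 870 CPM in shNT libraries, without overlap. The log2 fold change was -0.09 (SE 0.024 by edgeR, adjusted p = 0.000934), and with library-size scaling alone it was 0.01 with an adjusted p of 0.809, so its direction rested on the scaling. NLRC5 (chr16:56989485-57083531), the class I transactivator, had 66.2, 63.7 and 64.4 CPM in shYES1 libraries, against 61.3, 63.7 and 54.1 CPM in shNT libraries. The lowest shYES1 library and the highest shNT library were almost level. Its log2 fold change was 0.13 (SE 0.047 by edgeR, adjusted p = 0.0166), and without shNT library 3, the lowest, it was 0.05 with an adjusted p of 0.36. Without shYES1 library 1 the adjusted p was 0.0758, and by DESeq2 it was 0.0869.

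**Figure D1:**
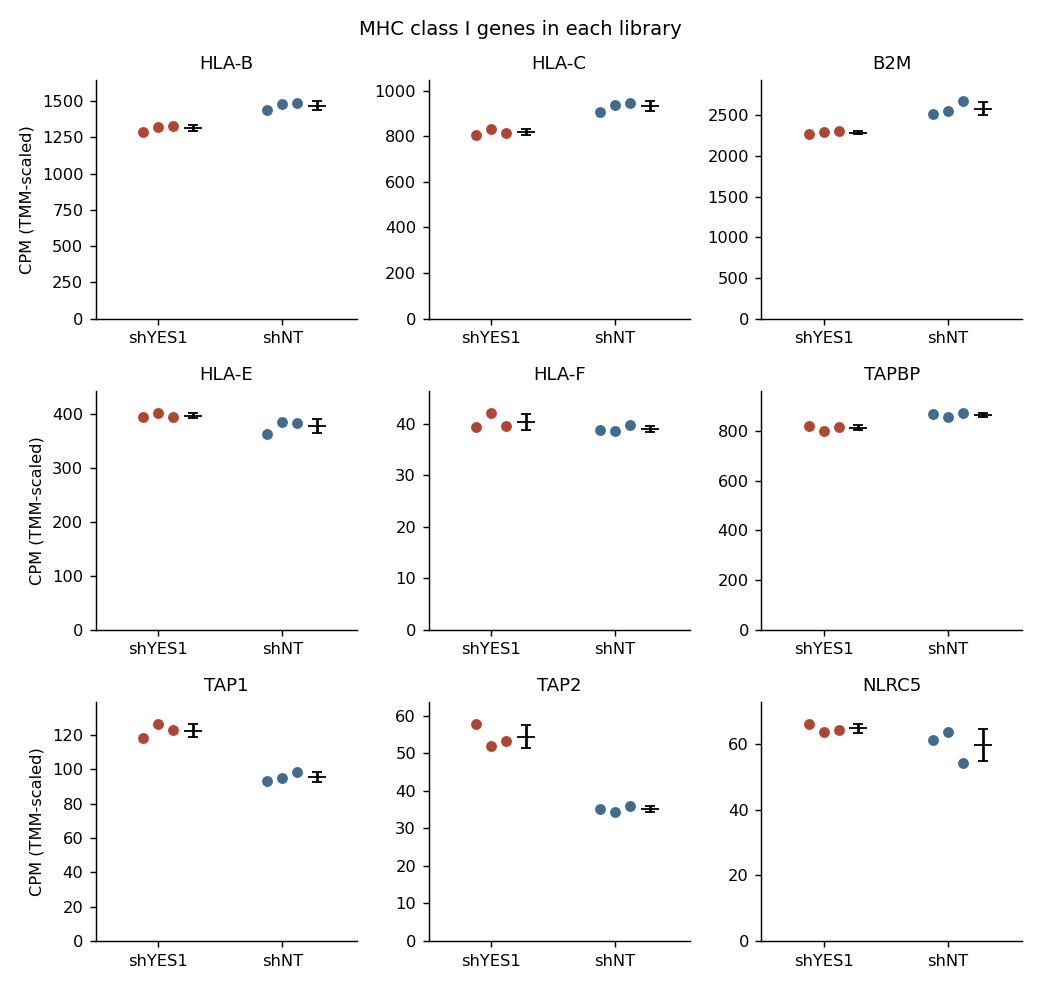
TMM-scaled CPM (vertical axes, from 0) of the 9 class I genes in each shYES1 library (left) and shNT library (right), libraries 1 to 3 from left to right; the bar beside each group is its mean ± SD (n = 3). TAP1 and TAP2 stand clearly higher in shYES1, HLA-B, HLA-C and B2M slightly lower, and HLA-F and NLRC5 have points at the same height in both groups; the directions of HLA-E, HLA-F and TAPBP turn under another scaling.

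Per kilobase of the principal transcript, the order of the 9 genes was the same in both groups: B2M, HLA-B, HLA-C, TAPBP, HLA-E, TAP1, HLA-F, TAP2 and NLRC5, from high to low, and the libraries of neighbours in this order did not overlap in either group. B2M stood at 1341 ± 11.2 CPM per kb in shYES1 and 1513 ± 47.3 in shNT (SD, n = 3 each), and HLA-B at 849 ± 13.97 in shYES1 and 949 ± 18.6 in shNT. TAP1 stood at 41.4 ± 1.33 CPM per kb in shYES1 and 32.2 ± 0.944 in shNT, and TAP2 at 21.8 ± 1.25 in shYES1 and 14.1 ± 0.319 in shNT, so both subunits were below HLA-B, HLA-C, HLA-E and B2M in both groups. HLA-F at 24.7 ± 0.970 and TAP2 were the closest neighbours in shYES1, and in shNT HLA-F was at 23.8 ± 0.361. If all unshared exonic bases were used as the length instead, HLA-B came before B2M in both groups and TAP2 before HLA-F in shYES1 only. Together the 9 genes took 0.602% to 0.615% of gene reads in shYES1 and 0.610% to 0.635% in shNT, ranges that overlap. HLA-B, HLA-C and B2M supplied 74.5% to 74.9% of those reads in shYES1 and 76.9% to 77.5% in shNT.

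Ratios of 2 genes' reads within a library do not depend on the scaling between libraries, and 10 of them were compared; they were chosen after earlier results of these data were known. With 3 libraries against 3, the smallest p of an exact permutation test (two-sided) is 0.1, so none could pass 0.05, and adjusted over the 10 ratios (Benjamini-Hochberg) that p is 0.167. HLA-B per B2M was 0.574 ± 0.00494 in shYES1 and 0.570 ± 0.0113 in shNT, and the groups overlapped (exact p = 0.7). HLA-C per B2M was 0.357 ± 0.00513 in shYES1 and 0.361 ± 0.00637 in shNT, again with overlap (exact p = 0.6). Both ratios of a chain to its partner differed between groups by less than the spread between libraries. HLA-C per HLA-B was slightly lower in every shYES1 library, at 0.622 ± 0.00798 in shYES1 and 0.634 ± 0.00241 in shNT.

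The other class I ratios separated fully, each at the smallest exact p of 0.1. HLA-E per B2M was 0.174, 0.176 and 0.172 in shYES1 libraries, against 0.144, 0.151 and 0.144 in shNT libraries. TAP1 per B2M was 0.0523, 0.0551 and 0.0533 in shYES1 libraries, against 0.0370, 0.0371 and 0.0369 in shNT libraries, a difference of 0.53 on the log2 scale. TAP2 per TAP1 was 0.489, 0.411 and 0.435 in shYES1 libraries, against 0.379, 0.362 and 0.364 in shNT libraries, a difference of 0.27 on the log2 scale. The transporter subunits thus changed unequally, with more TAP2 per TAP1 in every shYES1 library. TAPBP per TAP1 averaged 6.63 ± 0.291 in shYES1 and 9.06 ± 0.257 in shNT.

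**Figure D2:**
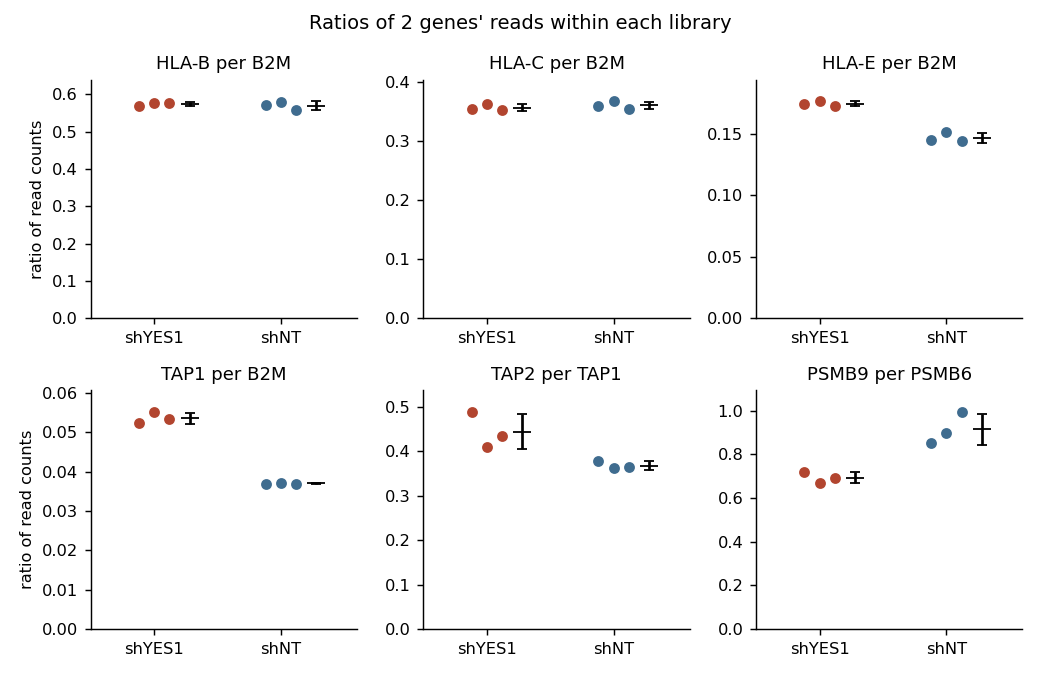
Ratio of the reads of 2 genes within the same library (vertical axes, from 0) for 6 of the 10 ratios, in shYES1 libraries (left) and shNT libraries (right); bars are mean ± SD (n = 3). HLA-B and HLA-C per B2M overlap between groups, HLA-E per B2M, TAP1 per B2M and TAP2 per TAP1 are higher in all shYES1 libraries, and PSMB9 per PSMB6 is lower.

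The scaling between libraries decides the sign of the small changes. Over all genes tested, the reported scaling puts the median change (log2) at -0.0047; library-size scaling puts it at 0.09, and scaling on genes whose 3′ UTR lacks the bases CCTTTC puts it at -0.10. That sequence had been singled out in earlier results of these data. Genes with CCTTTC in their longest annotated 3′ UTR (5785 genes) had a median log2 fold change of -0.07, and genes without it (6183) one of 0.09. A longer 3′ UTR has more room for the sequence. The groups were not matched for length, so the sequence and 3′ UTR length cannot be told apart here. Among the 9 class I genes, TAP2 holds CCTTTC at 3 sites, NLRC5 at 2, and TAP1, TAPBP and HLA-F at 1 each, and HLA-B, HLA-C, HLA-E and B2M hold none. Of the genes with it, TAP1, TAP2 and NLRC5 were called higher, TAPBP lower and HLA-F neither. Of the genes without it, HLA-E was called higher and HLA-B, HLA-C and B2M lower. Any part of the sequence in these changes was not tested. With the scaling on genes without CCTTTC, HLA-B, HLA-C and B2M were at -0.25, -0.28 and -0.27 on the log2 scale and still called lower, TAP1 and TAP2 were still called higher, at 0.27 and 0.54, and HLA-E and HLA-F turned to -0.02 and -0.05, neither called.

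**Figure D3:**
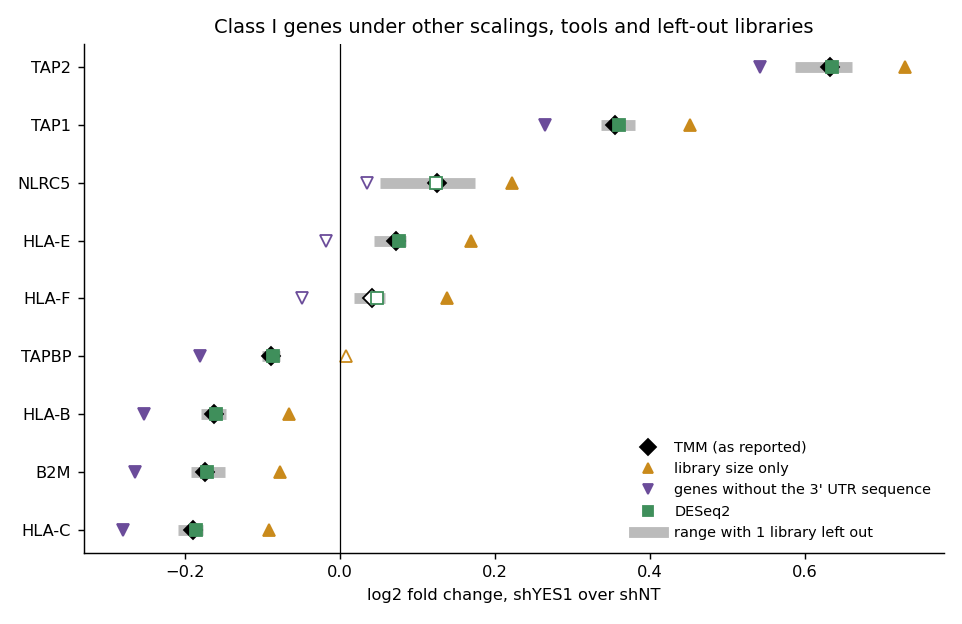
Log2 fold change, shYES1 over shNT (horizontal axis), of the 9 class I genes under the reported TMM scaling, library-size scaling, scaling on genes without the 3′ UTR sequence, and DESeq2; grey bars span the 6 fits with 1 library left out, and filled symbols are called at an adjusted p under 0.05. TAP1 and TAP2 lie right of 0 and HLA-B, HLA-C and B2M left of 0 under every setting shown, while TAPBP, HLA-E and HLA-F change side.

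The transporter did not rise alone: 11 of 20 further genes of peptide supply and loading were called higher, 7 lower and 2 neither, with a median log2 fold change of 0.14 (all genes tested: 65.3% called, median -0.0047). By step of the pathway, all 9 proteasome genes of the list rose, all 3 trimming aminopeptidases fell, and of the 6 genes of folding and loading in the endoplasmic reticulum 4 fell. With the scaling on genes without CCTTTC, 7 in place of 11 were called higher. No called gene of this list changed direction under that scaling or library-size scaling.

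The proteasome cuts proteins into the peptides that TAP carries. Its interferon-inducible catalytic subunits PSMB8, PSMB9 and PSMB10 replace PSMB5, PSMB6 and PSMB7 to make the immunoproteasome. The constitutive subunits rose more clearly: PSMB6 had 105, 104 and 106 CPM in shYES1 libraries, against 75.9, 74.2 and 68.3 CPM in shNT libraries (log2 fold change 0.53, edgeR adjusted p = 9.90e-17). PSMB7 had 116, 118 and 113 CPM in shYES1 libraries, against 84.3, 87.5 and 89.8 CPM in shNT libraries (log2 fold change 0.41, edgeR adjusted p = 5.95e-14). PSMB5 was higher by 0.23 on the log2 scale. Every shYES1 library was above every shNT library for these 3 genes.

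Of the inducible subunits, PSMB8 averaged 86.4 ± 0.970 CPM in shYES1 and 77.3 ± 4.34 CPM in shNT (log2 fold change 0.17), and PSMB9 72.6 ± 3.15 CPM in shYES1 and 66.4 ± 1.67 CPM in shNT (0.13; 174 of its exonic bases overlap PSMB8-AS1 on the same strand). PSMB8 and PSMB9 were called (edgeR adjusted p = 0.000291 and 0.00432), but not with the scaling on genes without CCTTTC (adjusted p = 0.0965 and 0.372). PSMB10 was 12.4 ± 1.42 CPM in shYES1 and 9.58 ± 0.484 CPM in shNT (log2 fold change 0.35, edgeR adjusted p = 0.00174); 644 of its 1853 exonic bases overlap another gene on the same strand. Set against its constitutive counterpart within each library, PSMB9 per PSMB6 was 0.720, 0.669 and 0.691 in shYES1 libraries, against 0.851, 0.899 and 0.994 in shNT libraries (exact p = 0.1). PSMB8 per PSMB5 and PSMB10 per PSMB7 overlapped between groups (exact p = 0.3 and 0.7). All 3 ratios averaged lower in shYES1, and that of PSMB9 was lower in every shYES1 library.

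The proteasome activator subunits also rose. PSME1 and PSME2, which form the interferon-inducible PA28 cap, were higher by 0.15 and 0.21 on the log2 scale, and PSME3, of the nuclear cap, by 0.20. PSME2 had 107, 112 and 109 CPM in shYES1 libraries, against 89.9, 95.4 and 96.9 CPM in shNT libraries. The groups did not overlap for any of the 3, and PSME1 lost its call with the scaling on genes without CCTTTC (adjusted p = 0.0928). Among cytosolic peptidases, TPP2, which shortens long proteasome products, was higher by 0.23 on the log2 scale (edgeR adjusted p = 5.81e-08). THOP1, which destroys free peptides, stood at 26.7 ± 0.343 CPM in shYES1 and 24.3 ± 1.38 CPM in shNT (log2 fold change 0.14, edgeR adjusted p = 0.0525) and was not called, but it was called higher with RLE scaling (adjusted p = 0.0476), library-size scaling (0.00106) or unstranded counts (0.0292), and without shNT library 3 (0.0219).

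Past the transporter the direction changed. The aminopeptidases ERAP1 and ERAP2 trim peptides in the endoplasmic reticulum to the length that class I chains hold, and LNPEP does so in endosomes. ERAP1 had 194, 194 and 196 CPM in shYES1 libraries, against 233, 240 and 230 CPM in shNT libraries (log2 fold change -0.26, edgeR adjusted p = 2.20e-11). ERAP2 had 432, 456 and 456 CPM in shYES1 libraries, against 554, 558 and 554 CPM in shNT libraries (log2 fold change -0.31, edgeR adjusted p = 5.76e-15). LNPEP changed by -0.37 on the log2 scale. No shYES1 library reached the lowest shNT library for any of them.

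Among folding and loading factors, CANX changed most. CANX (calnexin), the membrane chaperone that holds new heavy chains before B2M joins, had 980, 970 and 973 CPM in shYES1 libraries, against 1749, 1764 and 1762 CPM in shNT libraries. It was 1.8-fold lower (log2 fold change -0.85, SE 0.023, edgeR adjusted p = 6.84e-33), the largest change among the 29 genes of both lists. CALR (calreticulin), its soluble relative in the loading complex, had 1546, 1535 and 1549 CPM in shYES1 libraries, against 1825, 1844 and 1852 CPM in shNT libraries (log2 fold change -0.25, edgeR adjusted p = 1.32e-13). TAPBPL, a peptide editor related to tapasin, averaged 44.1 ± 0.556 CPM in shYES1 and 57.7 ± 1.67 CPM in shNT (log2 fold change -0.39, edgeR adjusted p = 3.66e-10). PDIA3, the disulfide isomerase bound to tapasin, changed by -0.11 on the log2 scale (edgeR adjusted p = 9.43e-05), a call lost under library-size scaling (-0.01, adjusted p = 0.741). UGGT1, which returns misfolded glycoproteins and poorly loaded class I chains to calreticulin, went the other way at 0.14 (edgeR adjusted p = 4.78e-05), a call lost with the scaling on genes without CCTTTC (adjusted p = 0.121). HM13, the signal peptide peptidase that frees leader peptides for HLA-E, overlapped between groups at 219 ± 3.50 CPM in shYES1 and 227 ± 7.65 CPM in shNT and was not called, but it was called lower with that scaling (-0.14, adjusted p = 4.4e-05) and without shNT library 2 (-0.08, adjusted p = 0.0243).

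**Figure D4:**
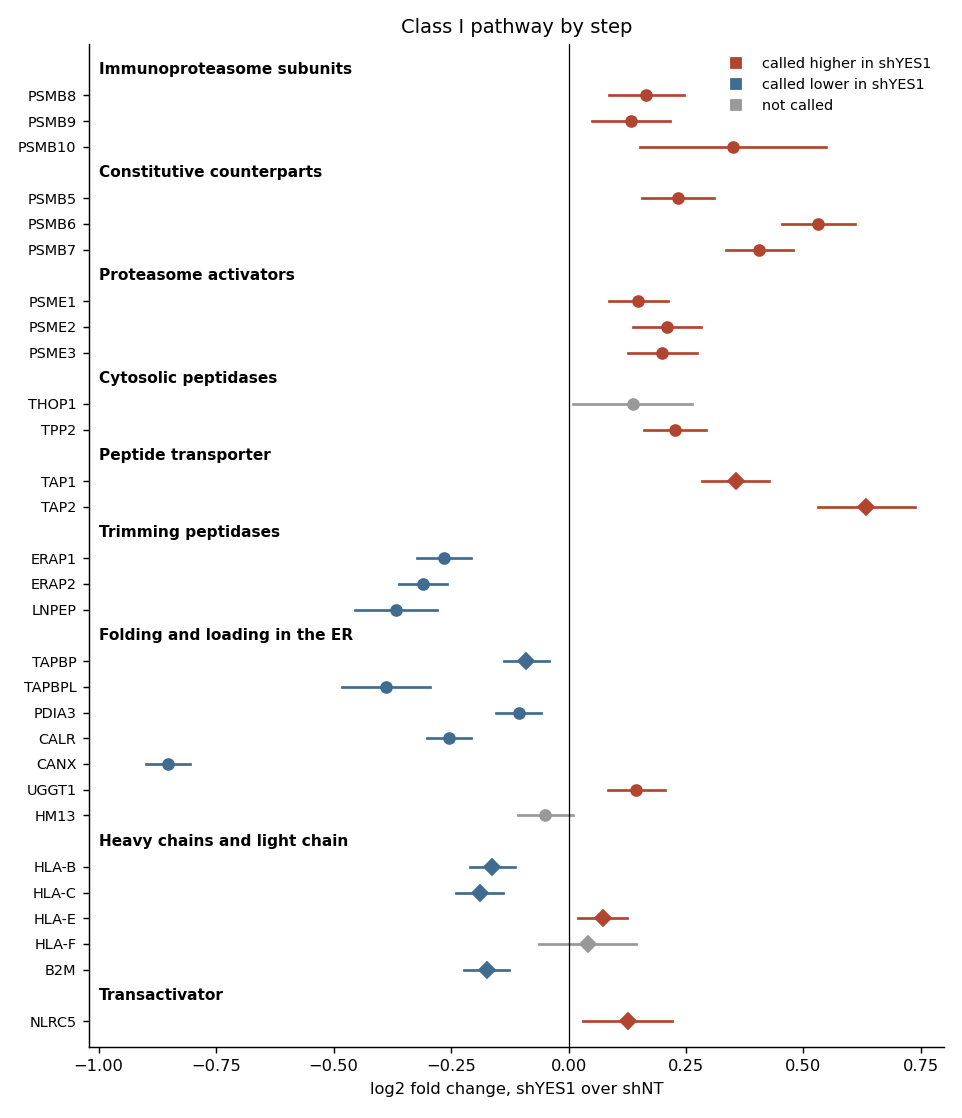
Log2 fold change, shYES1 over shNT (horizontal axis), with its 95% interval, for the 9 class I genes (diamonds) and 20 genes of peptide supply and loading (circles), ordered by step; red is called higher, blue lower and grey not called. Proteasome genes and the transporter lie right of 0, and trimming peptidases and most genes of folding and loading left of 0; the sides of TAPBP, HLA-E, HLA-F and HM13 turn under another scaling.

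Genes of class I transcription and interferon signalling were mixed: of 26 listed, 8 were called higher, 14 lower and 4 neither. Their median log2 fold change was -0.12 (all genes tested: 32.5% higher, 32.8% lower, median -0.0047). The list holds interferon receptors and Janus kinases beside promoter factors, so these counts do not describe promoter factors alone. Under library-size scaling 8 in place of 14 were lower. The RFX complex, which binds class I and class II promoters together with NLRC5 or CIITA, split: RFX5 stood at 58.9 ± 2.43 CPM in shYES1 and 44.0 ± 2.48 CPM in shNT (log2 fold change 0.41), and RFXANK at 25.7 ± 1.68 CPM in shYES1 and 18.4 ± 0.770 CPM in shNT (0.47). Their partner RFXAP, named after its values were seen, was at 3.00 ± 0.435 CPM in shYES1 and 6.84 ± 0.702 CPM in shNT (log2 fold change -1.16, edgeR adjusted p = 1.60e-09). IRF2, a factor that binds interferon-response elements, had 45.2, 47.6 and 48.1 CPM in shYES1 libraries, against 35.4, 34.2 and 34.4 CPM in shNT libraries (log2 fold change 0.44, edgeR adjusted p = 2.13e-10).

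At a mean of at least 5 CPM, the largest falls of this list were those of IFNAR1, JAK2 and NFKB1; of the 3 Janus kinases listed, JAK2 was called lower and the other two higher. IFNAR1, a chain of the type I interferon receptor, had 37.7, 37.7 and 39.4 CPM in shYES1 libraries, against 72.0, 74.6 and 75.1 CPM in shNT libraries (log2 fold change -0.95, edgeR adjusted p = 2.09e-23). JAK2, a kinase of the interferon γ receptor, had 22.0, 21.7 and 23.1 CPM in shYES1 libraries, against 43.3, 43.3 and 42.6 CPM in shNT libraries (log2 fold change -0.94, edgeR adjusted p = 9.99e-20). NFKB1, a subunit of NF-κB, changed by -0.82 on the log2 scale. IRF1, which was named after its values were seen, acts on the interferon-response elements of class I and TAP promoters. It was at 124 ± 2.36 CPM in shYES1 and 123 ± 2.39 CPM in shNT. Its log2 fold change was 0.01 with a 95% interval of -0.06 to 0.07 (edgeR adjusted p = 0.898). With library-size scaling IRF1 was called higher (0.10, edgeR adjusted p = 0.00606). With the scaling on genes without CCTTTC it was called lower (-0.085, edgeR adjusted p = 0.0205). Its sign also changed with the library left out.

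Class I molecules are also controlled at the surface, and all 10 genes listed for their turnover were called, 6 higher and 4 lower (median log2 fold change 0.14; all genes tested: 65.3% called, 32.5% higher and 32.8% lower). IRGQ, an autophagy receptor that sends class I molecules to lysosomes, averaged 30.6 ± 4.12 CPM in shYES1 and 20.2 ± 0.924 CPM in shNT (log2 fold change 0.60). TMEM127 and SUSD6, partners in a complex that marks class I molecules for degradation, went opposite ways, TMEM127 by 0.45 and SUSD6 by -0.49. Of the membrane ubiquitin ligases, MARCHF9, which can take class I off the surface, was at 4.86 ± 0.247 CPM in shYES1 and 9.48 ± 0.742 CPM in shNT (log2 fold change -0.98). MARCHF8, known best for class II molecules, had 12.1, 12.8 and 11.9 CPM in shYES1 libraries, against 33.9, 33.5 and 33.3 CPM in shNT libraries (log2 fold change -1.46, edgeR adjusted p = 9.53e-24). The ligase MARCHF4, named after its values were seen, went the other way at low levels. It was at 4.78 ± 0.370 CPM in shYES1 and 1.92 ± 0.416 CPM in shNT (log2 fold change 1.36, edgeR adjusted p = 6.19e-09).

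Of 8 other class I and class I-like heavy chains, 7 were tested, 3 were called higher, 3 lower and 1 neither (median log2 fold change -0.27; all genes tested: 65.3% called); without shNT library 1, 5 were called lower. PROCR, a class I-like receptor for protein C, had 59.0, 62.7 and 59.6 CPM in shYES1 libraries, against 27.2, 28.5 and 26.6 CPM in shNT libraries (log2 fold change 1.13, edgeR adjusted p = 3.48e-24). AZGP1, a secreted class I-like protein, was higher by 0.36 on the log2 scale, and HFE, which pairs with B2M and binds the transferrin receptor, by 0.15, a call lost with the scaling on genes without CCTTTC (adjusted p = 0.208). MR1, which pairs with B2M to show microbial vitamin metabolites to T cells, stood at 9.73 ± 0.983 CPM in shYES1 and 16.1 ± 1.11 CPM in shNT (log2 fold change -0.75). CD1D, which pairs with B2M to show lipids, stood at 4.77 ± 0.330 CPM in shYES1 and 7.21 ± 0.955 CPM in shNT (log2 fold change -0.57).

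Class II presentation was set beside class I because it shares the RFX complex. Of 14 genes, 7 had enough reads to be tested, of which 5 were called lower and 0 higher (0 also at an unadjusted p under 0.05 and by DESeq2; median log2 fold change -0.51; all genes tested: 32.8% lower, 32.5% higher), and the untested genes are left out of that count. CD74, the invariant chain of class II molecules, had 11.9, 11.2 and 12.8 CPM in shYES1 libraries, against 22.5, 25.7 and 23.4 CPM in shNT libraries (log2 fold change -0.98, edgeR adjusted p = 1.68e-15). HLA-DMA, a class II peptide editor, changed by -0.51 on the log2 scale, and CTSS, the protease that cuts CD74, by -0.46, at 149 ± 7.23 CPM in shYES1 and 204 ± 8.27 CPM in shNT.

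Neighbouring genes in the MHC were called at a share near that of all genes tested. Of 141 other protein-coding genes between HLA-F and TAPBP on chromosome 6 (29722775 to 33314387), 93 were tested, 34 were called higher, 23 lower and 36 neither, with a median log2 fold change of 0.04; that is 61.3% called, against 65.3% of all genes tested. MICA and MICB, stress-induced class I-like ligands of the NKG2D receptor of natural killer cells, were among the 3 largest rises at a mean of at least 5 CPM. MICA had 77.9, 76.7 and 79.5 CPM in shYES1 libraries, against 45.6, 40.4 and 44.1 CPM in shNT libraries (log2 fold change 0.85, edgeR adjusted p = 1.20e-21). MICB had 67.2, 69.6 and 61.5 CPM in shYES1 libraries, against 32.9, 30.5 and 35.4 CPM in shNT libraries (log2 fold change 0.99, edgeR adjusted p = 2.29e-21). TNXB, an extracellular matrix protein, was higher by 0.99 on the log2 scale. The largest falls at that level were LSM2, of the RNA decay and splicing machinery, by -1.74, CFB, complement factor B, by -1.27, and CSNK2B, the regulatory subunit of a casein kinase, by -1.18. Counts of TAP2, PSMB9, PSMB10, PSME2, TAPBPL, HM13, IRGQ, HLA-DMA, MICA, TNXB, CFB and CSNK2B are uncertain, since their exons share bases with another gene on the same strand.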

How the data were processed

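Stranded poly(A) RNA sequencing of 6 samples was analysed. The deposited values are whole-number read counts per gene, with no normalization, in 1 file per sample. The submitters' processing notes name CASAVA 1.8.2, Trimmomatic 0.35, STAR 2.5.1b and genome build GRCh38, and no source used here gives the annotation release. From the deposited counts the reverse-strand column was taken, since 93.5% to 94.0% of stranded gene reads fell on it. Entries that name no gene held 19.8% to 20.3% of reads and stayed out of library sizes and tests. Of 58219 identifiers, 57437 matched a symbol and 57881 are in GENCODE 29, the source of coordinates, exons and 3′ UTRs.

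The counts were filtered with filterByExpr of edgeR 4.0.16 in R 4.3.3 (at least 10 reads, at least 15 in total), which kept 14239 genes. TMM-scaled libraries were compared with the robust quasi-likelihood test over all genes, which had a common biological coefficient of variation of 2.10%. The step was tested on simulated data. CPM are given as mean ± SD (n = 3 libraries per group). Standard errors come from the F statistic and are approximate. Alternatives, 16 in all, were RLE and library-size scaling, DESeq2 1.42.0, limma-voom (limma 3.58.1), a filter at 1 CPM in 3 libraries or none, unstranded counts, a replicate block, glmTreat at 1.2-fold, each library left out in turn, and, chosen after seeing the data, scaling on genes without CCTTTC in a 3′ UTR of at least 50 bases.

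The members, gene lists, ratios and promoter patterns were chosen with earlier results of these data known. The text names YES1, the 9 genes, each tested gene of the supply and loading list and, from each other list, up to 3 called rises and 3 called falls with the largest log2 fold change at a mean of at least 5 CPM. Some genes that fall under this rule are not reported.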

Additional observations from a re-analysis of the deposited data

How the results depend on the processing

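TAP1 and TAP2 were called higher under all 16 alternative settings. HLA-B, HLA-C and B2M were called lower under all but the test against a change of 1.2-fold. Under that test, with the same log2 fold changes (HLA-B -0.16, HLA-C -0.19, HLA-E 0.072, B2M -0.17, TAPBP -0.090, NLRC5 0.13), these 6 genes lost their call, 2 of the 9 genes were called higher and 0 lower (0 also at an unadjusted p under 0.05), and over all genes 2324 were higher and 2861 lower. With library-size scaling, HLA-F and IRF1 were called higher (0.14 and 0.10), and 8 genes of the transcription list were called lower. TAPBP turned to 0.0071 and HM13 to 0.047 (neither called). With scaling on genes without CCTTTC, 2 of the 9 genes, 7 supply and loading genes and 5 transcription genes were called higher. HLA-E turned to -0.018 and HLA-F to -0.0496 (neither called), IRF1 turned to -0.085 and was called lower, and NLRC5 was not called at 0.035. NLRC5 was not called by DESeq2 (0.12), and with unstranded counts IRF1 was at -0.0017. With 1 library left out, log2 fold changes ran from 0.044 to 0.086 for HLA-E, 0.051 to 0.17 for NLRC5 and -0.0099 to 0.021 for IRF1, and 3 to 5 other heavy chains were called lower. RLE scaling, limma-voom, unstranded counts, the replicate block, no low-count filter and the 1 CPM filter each kept the calls of all 9 genes. The counts of called genes compared with these calls, 25 results in all, stayed within a set tolerance but were not all identical. No clear pairing of the samples by replicate number was seen: deviations of libraries with the same number correlated at 0.0116, 0.0252 and 0.0122. Still, 2 of 3 numbers matched best with their own, and 3 libraries per group are too few to exclude a pairing. With the replicate number as a block, 4628 genes were called higher and 4669 lower, with 4 and 4 of the 9 genes. HM13 and THOP1, not called as reported, passed in 2 and 4 settings. Genes with too few reads could not be tested, among them 7 of 14 class II genes. HLA-DQB1 and HLA-DOA had 0 reads in all 6 libraries. The part of depth in these low counts was not tested.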
